A study of Mus musculus with 2 samples.

Results

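The 5S ribosomal RNA gene cluster of the mouse was described here in testis DNA captured by its methylation. Its members were all listed windows of 100 bp on chromosome 8 whose start lies from 123530001 to 123650000 in the mm10 genome build, a span of 120 kb. The deposited table listed 844 windows in this span, 70.3% of the 1200 possible ones, out of 2537435 listed windows in all. The span was chosen because the longest run of bins higher in the knockout library lies in it, so the difference between the libraries is given below as a description, without a test. DNA was captured with the methyl-CpG binding domain of the MBD2 protein and sequenced. One library came from C57BL/6 testis with the genotype Kaiso KO, labelled as male sterile offspring of generation 3, and its description calls the testis WT as well. The other came from wildtype C57BL/6 testis. The age of the mice, the number of mice per library, the origin and deleted part of the Kaiso allele and the cell types of the sterile testis were not given in these sources. With 1 library per genotype no difference has a replicate check, and every interval covers counting error only.

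The 5S rRNA is a component of the large ribosomal subunit. Its genes stand in tandem arrays, apart from the repeats that encode the other ribosomal RNAs, and are transcribed by RNA polymerase III with the factor TFIIIA, which binds inside the gene. Only some of the copies of ribosomal RNA genes are usually transcribed in a cell, and DNA methylation is a known mark of silent copies. Kaiso, the protein of the gene Zbtb33, is a zinc finger protein that binds methylated CpGs and an unmethylated sequence.

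The knockout library held 98549116 reads and the wildtype library 87710791. The table lists windows selected by the authors at an unadjusted p below 0.05 between these libraries, so ratios in it are pushed away from 1 and a window that is absent was not shown to be unchanged. Zbtb33 had 83 counts in the knockout library and 303 in the wildtype library over 16 windows (log2 ratio -2.04, 95% interval -2.80 to -1.31). Its windows averaged 1.81 CpGs, and all listed windows with 1 and 2 CpGs had median log2 ratios of -1.22 and -0.71. The lower value at Zbtb33 therefore cannot serve as a check of the labels. A deletion and lower methylation cannot be told apart there. Captured DNA carries no RNA, so the labelled tissue could not be checked against marker genes.

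The span holds 51 annotated 5S genes between 123538784 and 123623745, 48 of them annotated as rRNA genes and 3 as pseudogenes. Neighbouring gene starts were 1665 to 1727 bp apart, with a median of 1698 bp over 50 spacings. The end of Gas8 and the lncRNA genes Gm19600 and Gm35930 make up the rest of the annotation. RefSeq promoter sequences (GRCm38.p6, the assembly of mm10) were matched for Gm19600 and Gm35930 and for 0 of the 51 5S genes. They are shown as examples of the DNA beside the array, with CpGs in capitals, 5′ to 3′ on the plus strand, for chr8:123630778-123631077 and chr8:123648042-123648341.
Gm19600: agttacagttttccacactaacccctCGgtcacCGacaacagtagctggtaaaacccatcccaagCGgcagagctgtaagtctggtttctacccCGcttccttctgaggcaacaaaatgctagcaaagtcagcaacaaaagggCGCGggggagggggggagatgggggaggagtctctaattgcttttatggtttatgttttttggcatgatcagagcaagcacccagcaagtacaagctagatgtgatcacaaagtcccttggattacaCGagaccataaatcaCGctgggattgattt
Gm35930: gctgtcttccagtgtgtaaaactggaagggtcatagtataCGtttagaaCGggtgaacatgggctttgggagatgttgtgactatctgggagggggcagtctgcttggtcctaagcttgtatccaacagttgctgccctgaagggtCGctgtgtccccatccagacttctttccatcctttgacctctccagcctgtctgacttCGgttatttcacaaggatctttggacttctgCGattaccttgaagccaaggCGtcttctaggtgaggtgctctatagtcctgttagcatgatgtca
These stretches of 300 bases hold 8 and 6 CpGs, against a median of 7 over 32851 promoters of the same source. Listed windows of 100 bp within 850 bp of a 5S gene start averaged 5.67 CpGs, with up to 18 in a window. The other listed windows of the span averaged 2.72. The motif CGCG, which Kaiso binds when methylated, occurs 1 time in the promoter of Gm19600 and not in that of Gm35930, and 38.0% of all promoters hold it. The other motif searched on both strands, the unmethylated Kaiso site TCCTGCNA, occurs in neither and in 4.96% of all promoters. No window of the Gm19600 promoter was listed, and the 1 listed window over that of Gm35930 had 87 counts in the knockout library and 57 in the wildtype library.

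Captured DNA of the 5S cluster was higher in the knockout library along nearly its whole length. The windows summed to 60996 counts in the knockout library and 21153 in the wildtype library, a log2 ratio of 1.36 (1.31 to 1.41) after scaling by library reads. The median window had 56 counts in the knockout library and 17 in the wildtype library. Of the 844 windows 819 (97.0%) had a ratio above 1, against 56.5% of all listed windows. A ratio of at least 2 was reached by 715 windows (84.7%), against 17.6% of all listed windows, and a ratio of at least 4 by 236 (28.0%), against 9.86%. The remaining 25 windows were lower, against 43.5% of all listed windows. In 1 kb bins, called where a bin had 20 or more fragments (summed counts divided by 4, since a fragment is counted in several windows), a 2-fold difference in either direction and a counting interval that left out 1, 87 of the 105 bins with the minimum were higher and 4 lower. Genome-wide 11.2% of bins were higher and 25.2% lower by the same rule. Over the repeat units 85 of 88 bins were higher, 0 lower and 3 neither. Of all called bins in the cluster 95.6% were higher, against 84.2% (32 higher, 6 lower) when the median of CpG-rich windows was set to 0. The genome-wide shares with that scaling were not computed. In whole testis a different mixture of cells and different methylation within cells cannot be told apart. No input library was analysed here, so the number of 5S copies in each mouse was not measured. Reads of near-identical copies may have been placed on any of them, since the sources used here do not say how reads with several alignments were kept, and values of single copies are uncertain for that reason.

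The higher ratios followed the extent of the annotated genes. In 5 kb steps, all 18 steps over annotated 5S genes had a log2 ratio above 1, between 1.16 and 1.87 with a median of 1.53. The lowest of them, from 123540001, had 3429 counts in the knockout library and 1367 in the wildtype library, and the highest, from 123615001, had 3469 in the knockout library and 846 in the wildtype library. The intervals of these steps, 0.97 to 1.34 and 1.65 to 2.09, did not overlap. Both were picked as the extremes, so this does not show that the steps differ. The other 5 steps of the span with listed windows lay between -0.24 and 0.59. In flanks of the same length, 2 of 23 steps on the left side and 0 of 23 on the right side were above 1. Over the whole left flank the log2 ratio was 0.61 (0.56 to 0.66) from 36446 knockout and 21237 wildtype counts, and over the right flank 0.24 (0.17 to 0.30) from 17118 knockout and 12929 wildtype counts. Windows were also listed more densely: 87.2% of the possible windows over the repeat units were listed, against 28.2% in the left and 18.6% in the right flank. Every listed window holds at least 1 CpG. Listed windows of the units averaged 5.67 CpGs, against 2.95 in the left and 2.43 in the right flank. The part of CpG content in the density of listing was not tested. At the limits of the span, the first listed window inside had a log2 ratio of 0.50 and the last one outside on that side 0.62, while the last inside had 1.48 and the first outside beyond it -1.85, over 5 kb away.

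**Figure D1:**
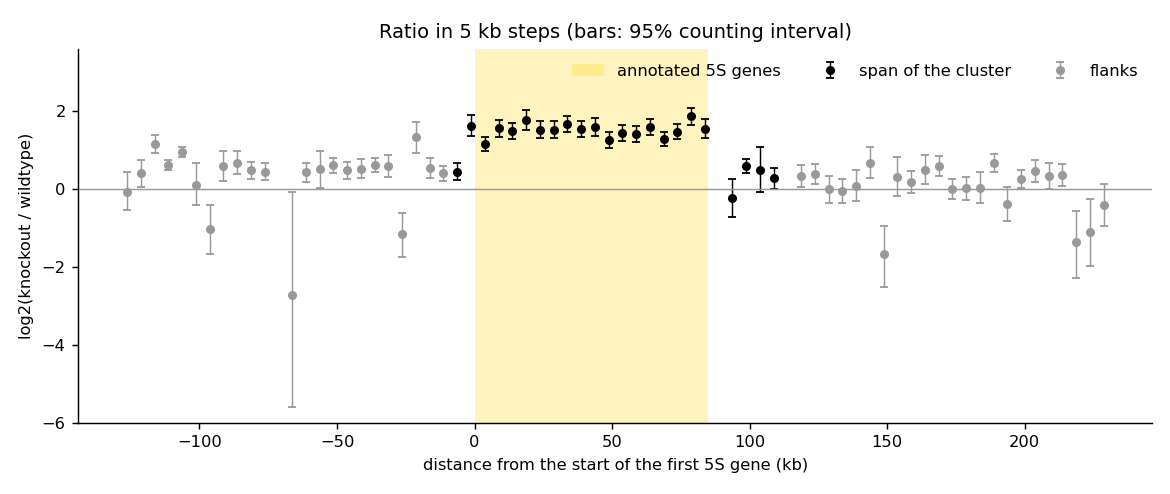
Log2 ratio of knockout over wildtype counts, scaled by library reads, in 5 kb steps (points) with 95% counting intervals (bars), against the distance from the start of the first 5S gene in kb. Black points lie in the span and grey ones in the flanks. The 18 steps over the annotated 5S genes (yellow) lie between 1.16 and 1.87.

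Capture followed the tandem repeat in both libraries. Windows not listed were set to 0 for the autocorrelation along the span. That of the counts was highest at a lag of 17 windows, 1700 bp, in the knockout library (0.65) as in the wildtype library (0.50). The CpG count was highest there too (0.68), and so was the mere listing of a window (0.50). The lag therefore does not separate the level of capture from the listing of windows. The average unit showed 1 peak between neighbouring genes and 1 trough over and just beyond the gene. The most captured window in both libraries lay near the pseudogene Rn5s-ps1. This window, from 123600801, with 8 CpGs, had 313 counts in the knockout library and 116 in the wildtype library, and its neighbours from 123600901, 123600701 and 123601001 had 285, 235 and 210 in the knockout library, against 108, 77 and 78 in the wildtype library. The window from 123617501 in the unit of n-R5s146, with 217 counts in the knockout library and 34 in the wildtype library, completed the 5 windows with the most knockout counts.

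**Figure D2:**
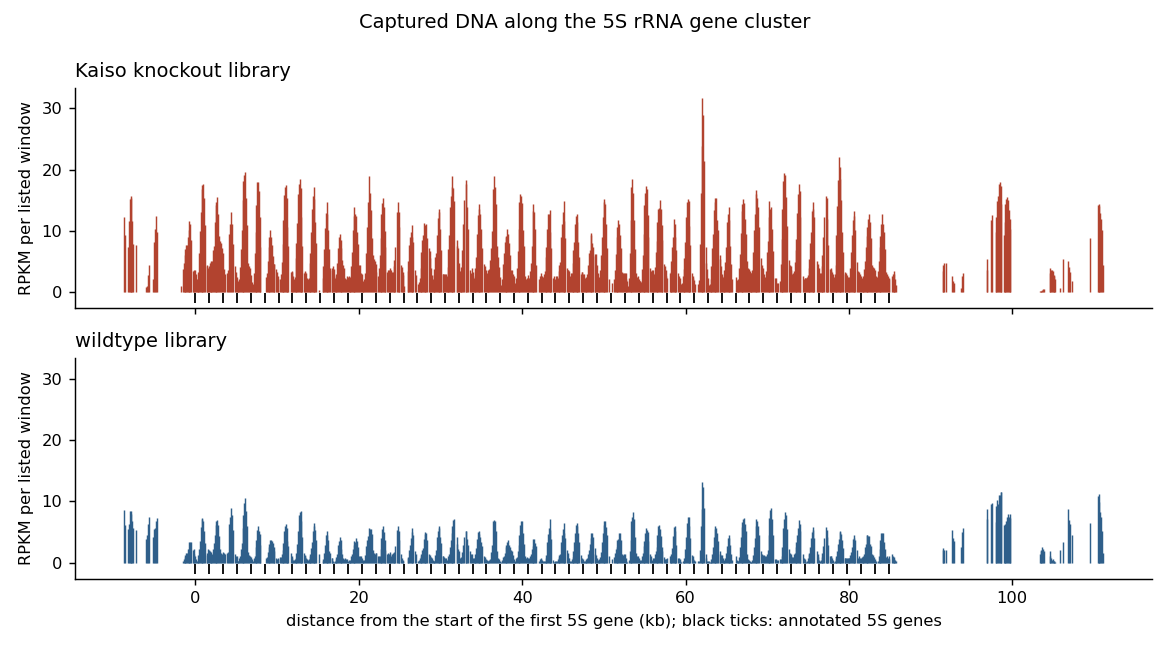
RPKM (reads per kilobase, scaled to library size, as deposited) of each listed window along the span, in the knockout library above and the wildtype library below, against the distance from the start of the first 5S gene in kb. Black ticks are the 51 annotated 5S genes. Both libraries peak between the genes, and the highest window reaches 31.8 RPKM in the knockout library and 13.2 in the wildtype library.

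The copies were laid over each other by the distance of each window's centre from the start of the nearest annotated 5S gene, within 850 bp. This placed 755 windows in repeat units. The strand of the genes was not in the tables used, so distances run along the plus strand from the lower coordinate of each gene. At -800 bp, in the spacer, the mean was 14.5 ± 3.47 RPKM in the knockout library and 5.76 ± 1.66 in the wildtype library (SD over 49 copies, which share a source and are not replicates). At 200 bp, just beyond the gene, it was 2.42 ± 0.677 in the knockout library and 0.499 ± 0.340 in the wildtype library over 40 copies. The highest position, -800 bp in the knockout library and -700 bp in the wildtype library, held 5.98 times the level of the trough in the knockout library and 11.6 times in the wildtype library. The trough held the most CpGs: windows at 200 bp averaged 16.4 CpGs, those at 100 bp 11.2 and those at 300 bp 9.93, whereas the peak at -800 bp averaged 4.92. At -500 bp, with 1.05 CpGs per window, capture was still 8.10 RPKM in the knockout library and 3.50 in the wildtype library. Within the unit, then, the windows with the most CpGs were the least captured ones in both libraries.

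The ratio was largest where the level was lowest. It peaked in the trough, at 2.28 (2.04 to 2.52) on the log2 scale at 200 bp, from 954 knockout and 175 wildtype counts over the 40 windows. It was smallest at -600 bp, at 1.19 (1.11 to 1.26), from 5283 knockout and 2066 wildtype counts over 49 windows. At the positions between, it was 1.98 (1.81 to 2.17) at the gene start, 1.92 (1.80 to 2.03) at 500 bp and 1.39 (1.32 to 1.46) at 800 bp. All windows of the units except 1 were higher in the knockout library. The exception, from 123553901 and centred 110 bp before the start of n-R5s109, had 3 counts in the knockout library and 12 in the wildtype library. Few windows were listed at -400 bp, in 2 of the 51 copies, with 40.5 counts on average in the knockout library and 10 in the wildtype library. Windows with few wildtype counts enter the table at large ratios only, and the part of this selection in the larger ratio of the trough was not tested.

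**Figure D3:**
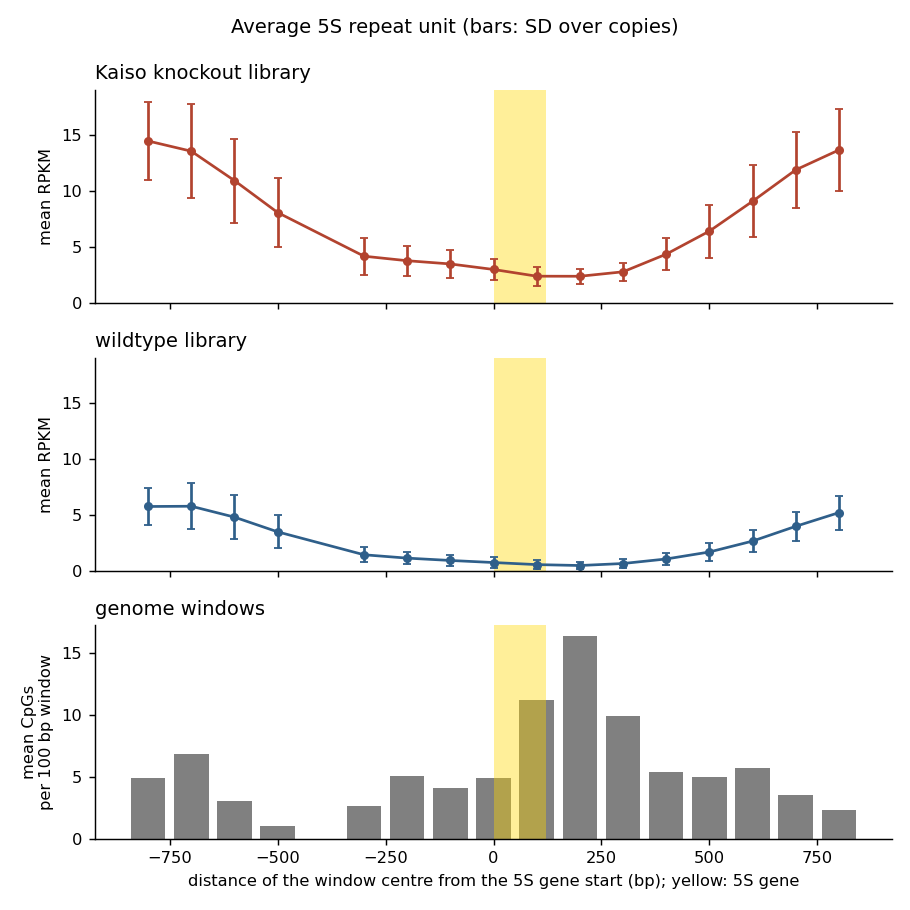
Mean RPKM per window in the knockout library (top) and the wildtype library (middle) and mean CpGs per window (bottom) against the distance of the window centre from the 5S gene start in bp, with the SD over 40 to 51 copies as bars. Yellow marks the gene, and the position at -400 bp, listed in 2 copies, is left out. Both libraries are lowest at 200 bp, where windows average 16.4 CpGs.

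Over the 5S genes themselves capture was low and the ratio large. The 99 listed windows that overlap a 5S gene, 90.0% of the 110 possible ones, had a mean of 2.75 RPKM in the knockout library and 0.673 in the wildtype library. The other 745 windows of the span averaged 7.94 in the knockout library and 3.15 in the wildtype library. All 99 gene windows had a ratio of at least 2, and 57 of at least 4, against 17.6% and 9.86% of all listed windows. A ratio of at least 2 was reached by 28.3% of all listed windows with 7 to 10 CpGs and 63.4% with 11 or more. The gene windows averaged 5.90 wildtype counts, and windows with few wildtype counts enter the table at large ratios only. The part of this selection in the ratios of the gene windows was not tested. The summed log2 ratio of the gene windows was 2.03 (1.77 to 2.30), from 2684 knockout and 584 wildtype counts, and that of the other windows 1.34 (1.29 to 1.38), a difference of 0.70. Among the windows of the repeat units alone the spacer had 1.48 (1.43 to 1.53) and the difference was 0.56. The gene windows held 8.54 CpGs on average and the spacer windows of the units 5.23.

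Higher counts were placed on every copy. Reads of near-identical copies may have been placed on any of them, so this does not show that each copy differs between the libraries. Each of the 51 units was higher and 0 lower by the call rule, against 10.8% higher and 26.8% lower among genome bins of 1700 bp, and the interval of each lay above 0. With the median of CpG-rich windows set to 0, 10 units were called higher, while all 51 intervals still lay above 0. The shares of genome bins called with this scaling were not computed, nor was the share with an interval above 0. The units summed to between 664 and 1748 counts in the knockout library, with a median of 1029, and between 170 and 531 in the wildtype library, with a median of 329. Their log2 ratios lay between 1.05 and 2.15 with an SD of 0.22, and the intervals of 47 of the 51 held the value of all units together, 1.499 (1.45 to 1.55). Copies with a higher mean RPKM in the knockout library had a higher one in the wildtype library too (Pearson's r = 0.795, Spearman's rho = 0.801 over 51 copies). These copies share the libraries, the alignment and much of their sequence, so the correlation is a description.

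The unit of Rn5s-ps1, an annotated pseudogene from 123601570, had the most counts in either library, 1748 in the knockout library and 531 in the wildtype library (log2 ratio 1.55, 1.26 to 1.84). By the counts of both libraries added, it was followed by n-R5s101, Gm22109, n-R5s119 and n-R5s104, which had 1362, 1370, 1389 and 1329 counts in the knockout library, against 451, 442, 420 and 472 in the wildtype library. Their log2 ratios were 1.43, 1.46, 1.56 and 1.33, all with intervals that hold the value of all units together. The 3 smallest ratios were those of n-R5s103 (1.05, 0.74 to 1.38), n-R5s130 (1.18, 0.80 to 1.57) and n-R5s136 (1.21, 0.84 to 1.59). The 3 largest were those of n-R5s146 (2.15, 1.79 to 2.54), n-R5s111 (2.09, 1.60 to 2.58) and n-R5s121 (2.00, 1.51 to 2.50). In n-R5s146 the knockout library had 1440 counts and the wildtype library 289, whereas in n-R5s103 the knockout library had 1111 and the wildtype library 477. The interval of n-R5s103 lies below those of these 3 units. All were picked by their ratios, so this does not show that copies differ. The unit of Rn5s, the copy that carries the family's own symbol, had 966 knockout and 319 wildtype counts (1.43, 1.06 to 1.81).

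The annotation of a copy went with little difference in the unit ratio. The 32 units with an rRNA gene of 121 bp had a summed log2 ratio of 1.504 (1.44 to 1.57), the 16 with one of 119 bp 1.49 (1.40 to 1.58), and the 3 with a pseudogene 1.48 (1.29 to 1.68). The pseudogene units of n-R5s127 and Gm23647 had 1130 and 664 counts in the knockout library, against 388 and 209 in the wildtype library, so that the pseudogenes included both the unit with the most knockout counts and the unit with the fewest. Over the gene windows alone, the summed log2 ratio was 2.17 (1.82 to 2.53) for genes of 121 bp and 1.80 (1.37 to 2.22) for those of 119 bp, with overlapping intervals. No window over the gene was listed for 2 copies, n-R5s105 and n-R5s109.

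**Figure D4:**
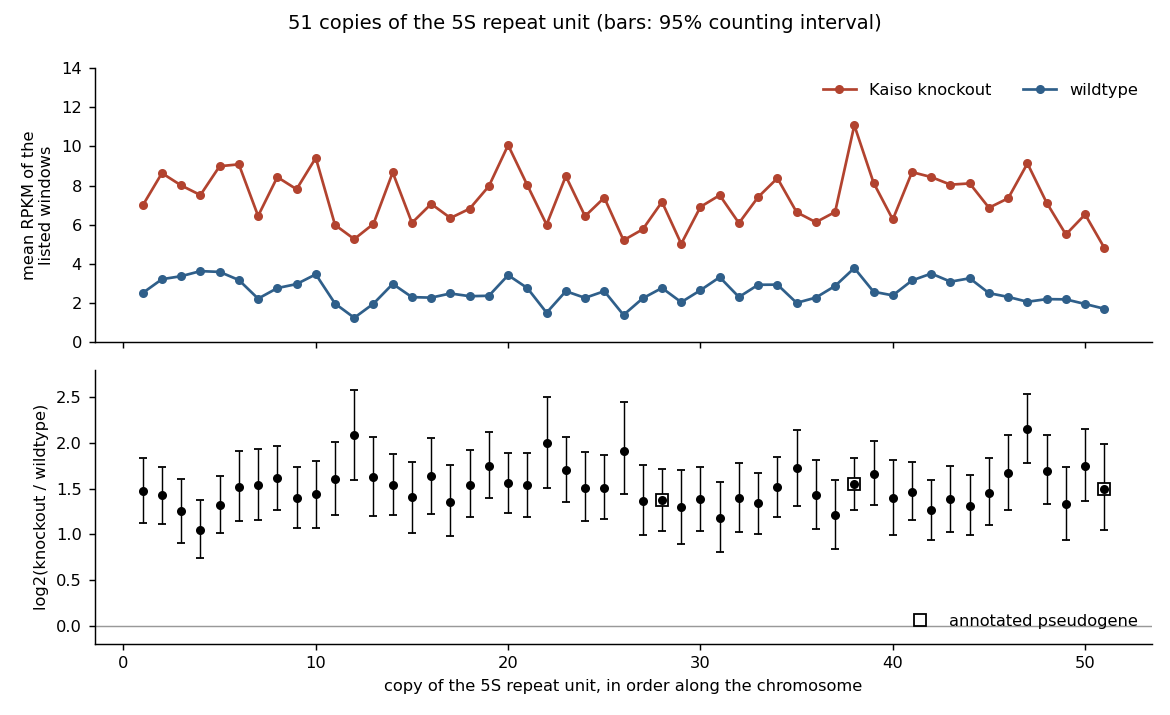
Mean RPKM of the listed windows of each 5S repeat unit (top, knockout in red above wildtype in blue) and the log2 ratio of its summed counts with 95% counting intervals (bottom), for the 51 units in their order along the chromosome. Open squares mark the 3 annotated pseudogenes. All ratios lie between 1.05 and 2.15.

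Single windows reached larger ratios on few wildtype counts. The 5 highest were ranked with wildtype counts below 3 set to 3, and the ratios given are those of the counts themselves. Near n-R5s110, the window from 123555601 had 41 knockout counts and 2 wildtype counts (log2 ratio 4.19, 2.24 to 7.28), and the next one, over the gene, had 37 knockout counts and 1 wildtype count (5.04, 2.47 to 10.38). In the unit of Rn5s the window from 123598501 had 37 knockout counts and 2 wildtype counts, as had the one from 123601401 in the unit of Rn5s-ps1. The one from 123568001 near n-R5s117 had 37 knockout counts and 3 wildtype counts. Against 31585 of all 2537435 listed windows, wildtype counts were absent from 5 of the 844 members, 4 of them in repeat units. The smallest summed count of any listed window was 10, so such a window is listed only with 10 or more knockout counts. Among these 5 windows, the one from 123622201 in the unit of n-R5s149, with 11 CpGs, had the most knockout counts, 24. It was 7.12-fold higher in knockout DNA against a floor of 3 counts in the window (lower end of the log2 interval 2.42). The window from 123598301 beside Rn5s, with 17 CpGs, had 15 knockout counts and was 4.45-fold higher against the same floor (lower end of the log2 interval 1.67). Knockout counts were absent from none of the 844 windows, against 37953 of all 2537435 listed windows.

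The direction of a listed window follows its CpG count in the whole table, so the members were set beside listed windows of their own CpG class. They were higher in classes where the genome was lower. The classes use the CpGs of the window alone, although a fragment is counted in several windows. In the units, windows at -500 bp averaged 1.05 CpGs and those at -700 bp 6.82. CpGs around the windows were not matched in this comparison. Windows with 1 CpG had a median log2 ratio of 1.25 in the 113 members and -1.22 in all listed windows of that class, and 89.4% of the members and 37.8% of all were higher in the knockout library. With 2 CpGs the medians were 1.32 in members and -0.71 in all listed windows. In classes of 3 to 10 CpGs the members had medians between 1.53 and 1.70, whereas all listed windows had 0.51 to 0.69. With 11 or more CpGs the 85 members had 2.22 and all 5007 listed windows 1.98. Averaged over the members' classes, the difference in medians was 1.22. It fell to 0.24 when classes were split by summed count as well, and was -0.60 when only autosomal windows at or below the members' median wildtype count were compared, an alternative added after the data were seen. With 3 or more CpGs the members had lower median counts than all listed windows of the class, and the part of the table's selection at low counts in this difference was not tested.

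In level, CpG-rich members lay below other listed windows. In windows of 7 to 10 CpGs the members had median values of 4.26 RPKM in the knockout library and 1.48 in the wildtype library, against 13.0 in the knockout library and 8.32 in the wildtype library over all listed windows of that class. With 11 or more CpGs the members had 2.44 in the knockout library and 0.456 in the wildtype library, against 7.71 in the knockout library and 1.37 in the wildtype library over all. In windows with 1 CpG the order was reversed in the knockout library, with 7.91 in the members and 1.73 in all listed windows, while the wildtype library had 3.65 in the members and 3.31 in all. The authors' relative methylation score, which in MEDIPS is capture corrected for CpG content and comes from the same reads, had a median of 0.0830 in the knockout library and 0.0366 in the wildtype library over the cluster. Over all listed windows it was 0.153 in the knockout library and 0.186 in the wildtype library. These medians are not matched for CpG count, and the score differed between classes. With 1 CpG, the knockout medians were 1.20 in members and 0.261 in all listed windows, and the wildtype medians 0.442 and 0.401. With 7 to 10 CpGs, the knockout medians were 0.0314 in members and 0.0895 in all listed windows, and the wildtype medians 0.0156 and 0.0867. At 200 bp from the gene start, the medians of the score were 0.00729 in the knockout library and 0.00206 in the wildtype library.

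**Figure D5:**
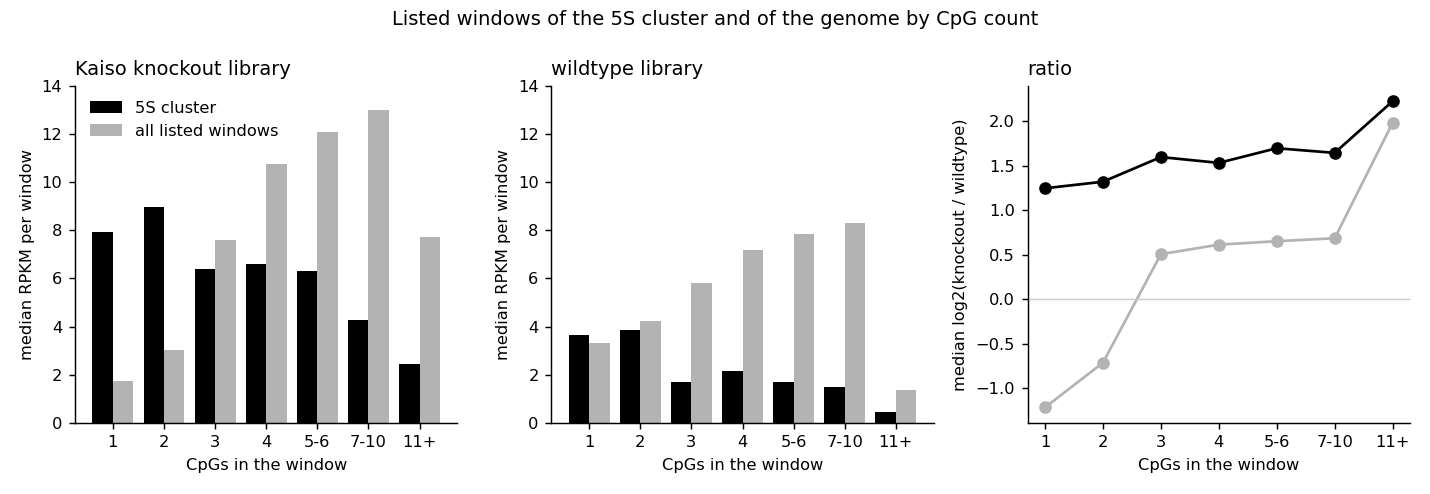
Median RPKM of listed windows by CpG count in the knockout library (left) and the wildtype library (middle), and median log2 ratio of knockout over wildtype (right), for the 5S cluster (black) and all listed windows (grey). Members with 11 or more CpGs have medians of 2.44 RPKM in the knockout library and 0.456 in the wildtype library, and member log2 ratios lie between 1.25 and 2.22.

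The rest of the span had lower ratios as a whole. The 89 listed windows outside the units had 6689 knockout and 4056 wildtype counts, a log2 ratio of 0.55 (0.44 to 0.67), and 24 of them were lower. One stretch just before the first annotated gene, from 123537201 to 123537900, stood apart. Its 7 windows held 37 to 89 knockout counts and 2 to 19 wildtype counts, with a log2 ratio of 2.46 (1.76 to 3.29) and no annotated 5S gene. From 123537301 on, its windows held 9, 6, 5, 5, 4 and 1 CpGs, while knockout counts rose from 47 to 89. In the average unit, mean CpGs went from 9.93 at 300 bp to 2.32 at 800 bp, while mean knockout counts rose from 27.8 to 135. Whether part of an unannotated 5S repeat lies in the stretch was not tested. The stretch begins within 1 kb of the upper end of Gas8, a gene of the dynein regulatory complex of cilia and flagella. The part of Gas8 inside the span had 1630 knockout and 1061 wildtype counts over 19 windows (0.45, 0.23 to 0.68). Gm19600 had 3049 knockout and 1969 wildtype counts over 42 windows (0.46, 0.30 to 0.63), and Gm35930 had 894 knockout and 534 wildtype counts over 8 windows (0.58, 0.26 to 0.89).

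Gm19600 held both the lowest stretch of the span and a high one. Its 6 adjacent windows from 123642101 to 123642700 had 1 to 5 knockout counts and 13 to 22 wildtype counts, with a log2 ratio of -2.81 (-4.85 to -1.34). They include the 5 windows with the lowest ratios of the cluster, and hold 1.17 CpGs on average. The 8 windows from 123643301 to 123644100, with 3.13 CpGs on average, had 20 to 39 knockout counts and 1 to 16 wildtype counts (2.23, 1.30 to 3.23). Both stretches were picked by their direction and length, without a test.

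Set beside the long runs of called bins elsewhere, the 5S run was longer and less steep. The longest run of adjacent higher bins in the cluster covered 45 kb from 123544001 (log2 1.53, 1.46 to 1.60), with 71.1 knockout and 21.9 wildtype counts per window and 5.71 CpGs. The longest such run on another chromosome, 39 kb of chromosome 6 from 114599001, had 56.9 knockout and 9.30 wildtype counts per window, 3.55 CpGs and a ratio of 2.44 (2.33 to 2.56). Windows with a ratio of at least 4 made up 32.2% of the 5S run and 74.1% of the chromosome 6 run. The longest lower run, 13 kb of chromosome X from 169970001, had 76.3 knockout and 224 wildtype counts per window with 2.34 CpGs (-1.72, -1.81 to -1.64). These runs were chosen by the same contrast, so their values are a description too.

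Copies of the 5S sequence outside the array had a lower summed ratio than the array, with calls that depended on the margin. RefSeq annotates 30 of them elsewhere in the genome, 13 as rRNA genes and 17 as pseudogenes, and 8 had no listed window within 1 kb. The others summed to 4333 knockout and 2622 wildtype counts, a log2 ratio of 0.56 (0.41 to 0.70), and windows in the array held 5.67 CpGs on average, against 2.47 in these. Of the 16 with the minimum of fragments, 4 were higher, 4 lower and 8 neither, against 10.7% higher and 27.0% lower among genome bins of 2100 bp, about the same length. The higher ones included n-R5s92 (675 knockout and 117 wildtype counts, 2.36, 1.80 to 3.00) and n-R5s194 (198 knockout and 35 wildtype counts, 2.33, 1.27 to 3.52), and the lower ones n-R5s152 (22 knockout and 109 wildtype counts, -2.48, -3.90 to -1.03) and n-R5s204 (17 knockout and 69 wildtype counts, -2.19, -4.29 to -0.64). These 4 were named after their values were seen. Most of these counts lie beside the genes and not on them: without the margin, 21 windows over 12 genes had a ratio of 0.81 (0.53 to 1.10). Of the 8 genes with the minimum there, 3 were higher, 0 lower and 5 neither, against 12.3% higher and 11.3% lower among bins of 200 bp.

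DNA beside an annotated 18S rRNA sequence gave a contrast in level. In the 5S cluster, windows of 11 or more CpGs had medians of 24 knockout and 4 wildtype counts. Rn18s-rs5, on chromosome 17 from 39846354 to 39848202, is annotated as a pseudogene. No listed window overlapped it, and 11 windows within 1 kb of it held 4 to 16 CpGs, 9 of them 11 or more. These windows had 315 to 788 counts in the knockout library and 253 to 669 in the wildtype library, a mean of 71.3 RPKM in the knockout library and 60.3 in the wildtype library. Their log2 ratio was 0.24 (0.14 to 0.34). Reads of other rRNA repeats may have been placed there, so the level may be that of more copies than 1.

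Genes that make or handle 5S RNA showed no common direction. The list held TFIIIA (Gtf3a), the subunits of TFIIIC, TFIIIB and RNA polymerase III, the La and Ro proteins, the partners of 5S RNA in its particle with Rpl5 and Rpl11, assembly factors, and regulators such as Maf1. It named 34 symbols, of which 1, Bxdc2, is an older name of Brix1, leaving 33 genes. At their gene ends, 1 kb on each side, 4 had no listed window, and of the 26 with the minimum 5 were higher, 5 lower and 16 neither, against 22.5% higher and 13.5% lower among protein-coding genes. The median log2 ratio was 0.42, against 0.50 among protein-coding genes. The higher ones included Polr3a, the largest subunit of RNA polymerase III (227 knockout and 21 wildtype counts, 3.27, 2.04 to 5.02), Rrs1, an assembly factor of the 5S particle (535 knockout and 104 wildtype counts, 2.19), the polymerase subunit Polr3b, and the TFIIIC gene Gtf3c5. Polr3b and Gtf3c5 had 461 and 627 knockout counts, against 148 and 279 wildtype counts, with log2 ratios of 1.47 and 1.00. The lower ones were Rpl11, a ribosomal protein that binds 5S RNA (194 knockout and 488 wildtype counts, -1.50, -2.03 to -1.02), the TFIIIC gene Gtf3c2, Ssb, the gene of La, the assembly factor Rpf2, and Crcp, a subunit of RNA polymerase III. Gtf3c2, Ssb, Rpf2 and Crcp had 38, 65, 78 and 81 knockout counts, against 89, 149, 160 and 145 wildtype counts, with log2 ratios of -1.40, -1.36, -1.20 and -1.01. Gtf3a had 1619 knockout and 931 wildtype counts over 18 windows (0.63, 0.39 to 0.87) and was not called. Over whole genes 2 of 33 were higher, Rrs1 and Polr1c, and 3 lower, Ssb, Polr3f and Rpl5, against 9.80% higher and 5.67% lower among protein-coding genes.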

How the data were processed

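Capture sequencing of testis DNA was deposited as 1 table for both genotypes. Bowtie2 2.2.6, edgeR and mm10 were named in the submitters' processing notes. Windows carry the column names that MEDIPS gives, per the file headers. Deposited counts are whole reads per window, and the deposited RPKM divides them by window length and library size. The authors' relative methylation score is a column named rms, per the file headers, which in MEDIPS is a value corrected for CpG content. The authors' log2 fold change is coded as wildtype over knockout and was used here for 1 scaling alternative. Every one of the 2537435 windows has a deposited p-value under 0.05, and the adjusted column repeats it. Another 10 columns of values per sample were not used here.

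Ratios are knockout over wildtype, scaled by library reads (98549116 and 87710791, recovered from counts and RPKM). A fragment is counted in several windows, so sums were divided by 4 before exact Clopper-Pearson 95% intervals were taken; single windows, and sums over 1 window per copy, were not divided. Reads are not independent molecules, so intervals cover counting error only. Folds of windows with 0 wildtype counts were taken against a floor of 3 counts per window, which leaves out the counting error of the knockout counts. Gene positions came from RefSeq (GRCm38.p6). A repeat unit takes the windows nearest to a 5S gene start, and gene ends take 1 kb on each side of both ends. Named were the 5 units with the most counts, the 3 lowest and 3 highest ratios, the other genes of the span, the called genes of the 5S list (values of some genes are not reported here), and the windows with the most knockout counts and the highest ratios (with wildtype counts raised to at least 3) and lowest ratios. The member span, lists and rules were chosen with earlier results of these data known. Scalings, minimums, bins, spans and margins were varied. Tools were Python 3.11.15, pandas 2.3.3, scipy 1.17.1, matplotlib 3.10.9 and edgeR 4.0.16 for TMM.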

Additional observations from a re-analysis of the deposited data

How the results depend on the processing

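Of 45 alternatives 23 left a result the same, 21 moved it and 1 reversed it. The same meant within the counting interval or within 1.5 times the count. Values without an interval had to be equal when rounded to 2 decimals. The log2 ratio of the cluster, 1.36, stayed above 0 under each alternative, which was certain for the longest run of higher bins. It was 1.49 with the authors' scaling, 1.19 with TMM, 1.09 with total autosomal counts and 0.69 when windows with at least 5 CpGs were centred on a median of 0; these shift every ratio by 0.13, -0.17, -0.27 and -0.67 in that order. It was 1.30 in windows with summed counts of at least 50, 1.43 with 10 kb less at each end, 1.53 in the longest run, 1.62 as the median of windows and 1.499 in the repeat units, the last added after the data were seen. With the CpG-rich median set to 0, 386 windows in place of 715 were at least 2-fold higher and 10 units in place of 51 (added after the data were seen) and 32 bins in place of 87 were called higher, with 6 bins lower, so that 84.2% of called bins were higher and not 95.6%. The genome-wide shares with this median set to 0 were not computed. A ratio of at least 4 left 236 windows. The difference from the members' CpG classes, 1.22, was 0.24 with count classes and reversed to -0.60 among windows of low wildtype count. The gene against spacer difference of 0.70 was 0.64 at an overlap of 50 bp, 0.72 with 100 bp on each side and 0.56 in the repeat units alone. The difference from the flanks, 0.88, was 0.93 with flanks of 50 kb. The 5S genes elsewhere had 0.81 without a margin, against 0.56. Over whole genes 2 genes of the 5S list were higher and 3 lower of 33, and with 500 bp at gene ends 2 were higher and 4 lower of 14, against 23.1% and 15.5% of protein-coding genes, in place of 5 and 5 of 26. The cause of these moves was not tested. The lag of 1700 bp was the same in every series tried. No paired analysis was possible because each genotype has 1 library, and for the same reason none could be left out. Depth limits single windows of the trough, with a mean of 4.38 wildtype counts at 200 bp.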
